A study of Mus musculus with 6 samples.

Results

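Stefins are small inhibitors of cysteine proteases. The 8 mouse genes described here were chosen by name after it was known that some of them differed between these arrays. They were Cstdc4, Stfa2l1, Csta2, Stfa1, Stfa2 and Stfa3, which lie next to each other on chromosome 16, the stefin Cstb, which lies outside this cluster, and the secreted cystatin Cst3. Every probe whose RefSeq accession belonged to 1 of these genes was kept, bright or dim. This gave 9 probes out of 56605 on the array, for 8 of the 23462 genes with a matched probe, since Cst3 had 2 probes and the other genes 1 each. The differences between the groups chose the members, so they are given as a description and were not tested.

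RNA was measured on 6 single-colour arrays of BV2, an immortalized mouse microglial cell line. All 6 samples carry the label LPS, a bacterial cell wall lipid that activates Toll-like receptor 4; the culture methods of the study give 500 ng/ml for 6 h, without naming the arrays. The control group held 3 samples without PGC-1α overexpression. The other group held 3 samples with PGC-1α overexpression, in which the methods describe a lentiviral coding sequence behind a Ubi promoter and selection with puromycin. PGC-1α, encoded by Ppargc1a, is a coactivator that drives mitochondrial genes. Whether the control arrays carried the negative control virus, and whether the replicates came from separate cultures, is not given in the sources used here, so the spread between arrays may be technical.

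Stefins (type 1 cystatins) have no signal peptide and act in the cytosol, where they block papain-like proteases such as cathepsins B, H, L and S that leak from lysosomes. Humans have a single stefin A, CSTA, whereas in the mouse the stefin A gene has been copied many times in tandem. In mice these copies are known from neutrophils, other myeloid cells and epidermis. Cystatin C, the product of Cst3, is secreted and is abundant in microglia.

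The probes for Ppargc1a gave little information on the labels. The intensities of the first probe were 21.8, 19.6 and 9.1 in the control group against 22.3, 22.1 and 21.2 with overexpression, and it was well above background on 2 of 3 arrays of either group. The second probe read 14.1, 20.3 and 13.8 against 9.1, 12.4 and 15.0. Scaled to the 75th percentile of each array, the log2 differences were 1.14 and 0.26, and with quantile normalization 0.84 and -0.07. The scaled groups did not overlap for the first probe and overlapped for the second. Neither probe met the criterion for testing, and where they lie relative to the cloned coding sequence was not analysed here. Of 13 microglial and macrophage markers 11 were tested, 5 rose and 1 fell. Their median log2 difference was 0.17, against 0.23 over all tested genes, of which 36.9% rose and 19.6% fell. Cx3cr1 and P2ry12 were not well above background on any array. Itgam, Tyrobp, Csf1r, Trem2 and Cd68 rose by 0.75, 0.74, 0.67, 0.52 and 0.46 on the log2 scale (limma, adjusted p of 0.00218 to 0.0149). None of these passed with quantile normalization. The other tested probe of Itgam gave 0.09, and that of Csf1r gave 0.85. Tmem119, a marker of resident microglia, fell by 2.68 (adjusted p = 4.35e-05), and 5 markers did not pass the test. With quantile normalization 0 markers rose and 3 fell, now also Adgre1 (-0.47, adjusted p = 0.0147) and Fcgr3 (-0.35, adjusted p = 0.024). The overexpression arrays were dimmer as a whole, with a 75th percentile of intensity of 856 to 1268 against 1617 to 1893 on the control arrays. After each array was scaled to this percentile, the median difference over all tested probes was 0.25 on the log2 scale, and it was 0.05 after quantile normalization. The differences below include this shift, except where a value above the median of all probes is given, and are to be read against it.

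In the RefSeq annotation, 11 named genes of the Stfa, Csta and Cstdc series formed the cluster. In order along the chromosome they were Csta1, Stfa2l1, Cstdc4, Csta3, Csta2, Stfa1, Cstdc3, Cstdc6, Cstdc5, Stfa2 and Stfa3. The 5 that were not members are shown beside them because they share the locus, and 4 of these had a matched probe. To show how alike and how unlike the members are, the 250 bases before the annotated start of 6 of them are printed on their own strand, from RefSeq (GRCm38.p6).
Cstdc4, chr16:36183962-36184211, plus strand: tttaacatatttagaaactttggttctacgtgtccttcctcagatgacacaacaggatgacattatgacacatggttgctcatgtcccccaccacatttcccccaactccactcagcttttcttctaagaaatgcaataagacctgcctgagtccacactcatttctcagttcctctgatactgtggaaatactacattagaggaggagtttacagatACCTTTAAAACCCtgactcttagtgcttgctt
Stfa2l1, chr16:36156561-36156810, plus strand: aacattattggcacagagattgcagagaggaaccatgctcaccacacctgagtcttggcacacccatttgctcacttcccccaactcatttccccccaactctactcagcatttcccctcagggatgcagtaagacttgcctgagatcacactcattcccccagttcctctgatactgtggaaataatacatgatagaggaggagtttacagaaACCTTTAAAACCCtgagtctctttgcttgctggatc
Stfa2, chr16:36408364-36408613, minus strand: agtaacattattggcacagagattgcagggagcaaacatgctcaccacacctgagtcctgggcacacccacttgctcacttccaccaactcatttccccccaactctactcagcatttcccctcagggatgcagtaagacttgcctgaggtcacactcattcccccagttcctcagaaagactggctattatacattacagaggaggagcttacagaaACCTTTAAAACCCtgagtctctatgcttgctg
Stfa3, chr16:36455393-36455642, minus strand: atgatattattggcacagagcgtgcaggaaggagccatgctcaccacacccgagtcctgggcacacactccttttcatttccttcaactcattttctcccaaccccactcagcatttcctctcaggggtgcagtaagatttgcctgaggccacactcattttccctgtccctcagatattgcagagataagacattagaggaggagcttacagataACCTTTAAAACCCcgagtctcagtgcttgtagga
Stfa1, chr16:36276898-36277147, plus strand: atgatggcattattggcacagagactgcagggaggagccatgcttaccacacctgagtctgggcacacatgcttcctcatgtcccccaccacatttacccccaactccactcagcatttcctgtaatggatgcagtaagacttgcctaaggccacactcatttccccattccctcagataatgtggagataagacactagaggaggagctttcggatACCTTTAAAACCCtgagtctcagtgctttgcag
Csta2, chr16:36221312-36221561, plus strand: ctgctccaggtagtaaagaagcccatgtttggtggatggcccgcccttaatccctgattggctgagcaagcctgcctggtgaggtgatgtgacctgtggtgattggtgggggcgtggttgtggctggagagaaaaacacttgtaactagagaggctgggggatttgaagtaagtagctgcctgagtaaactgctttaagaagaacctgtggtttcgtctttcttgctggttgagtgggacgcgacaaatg
The capitals mark the longest run that the windows of the 5 members named Stfa or Cstdc had in common, ACCTTTAAAACCC, which began 32 to 36 bases before the start. This run was in 8 of 32851 windows of the same length (0.0244%). All 8 genes lie in the cluster, namely these 5, Csta3, Cstdc3 and Gm7260. In Cstdc5 the run began 12 bases before the start and so crossed the end of the window. Csta2 did not hold it, and its window shared only 41.0 to 45.3% of aligned positions with those of the other cluster genes (Cstdc3 not compared, and Cstdc6 without a window), against 44.9% with that of Cst3. Csta1 did not hold the run either, and its window shared 37.4 to 48.4% with those of the other cluster genes compared. The windows of the 5 members that held the run were 67.3 to 89.4% identical to each other, and the closest pair was Stfa2 and Stfa2l1.

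Common binding motifs were looked for on both strands of the same 250 bases. The C/EBP motif TTGCNNAA was found in Stfa1, Csta3, Cstdc5 and 1 of 2 windows of Cstdc3, and 9.56% of all windows hold it. The AP-1 motif TGANTCA was found only in the other window of Cstdc3, against 6.75% of all windows. The TATA box TATAAA, the PU.1 motif GAGGAAGT, the estrogen-related receptor motif TNAAGGTCA and the NF-kB site were in none of the 11 windows of the cluster. They are held by 12.4, 2.44, 1.14 and 7.25% of all windows, respectively. No match says only that these letters are not in this window. The Cst3 window held none of the motifs either, and Cstb had no window in the table.

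Cstdc4, a stefin A-like gene near the Csta1 end of the cluster, had the largest difference of the members. In control replicates 1, 2 and 3 its intensity was 32.2, 26.0 and 36.5, and in overexpression replicates 1, 2 and 3 it was 298.0, 172.5 and 271.2. The lowest overexpression array stood far above the highest control array, and the probe was well above background on all 6. On the scaled log2 values the means were -5.77 ± 0.17 and -2.16 ± 0.18 (SD, n = 3 each), a difference of 3.61 with a standard error of 0.16, or 12.2-fold. The raw intensities, without any scaling, differed 7.70-fold.

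Stfa2l1 was close to background in the control group. It read 13.5, 27.5 and 20.2 there, of which replicate 2 alone was well above background, and 135.9, 77.9 and 78.0 with overexpression, all well above background. The groups did not overlap, but the spread within them was the widest of the tested members, with scaled means of -6.45 ± 0.52 and -3.52 ± 0.47 (SD, n = 3 each). The difference was 2.92 with a standard error of 0.31. Csta2 read 159.2, 189.6 and 255.6 against 1070.0, 751.5 and 1003.4, and all 6 arrays were well above background. Its scaled means of -3.11 ± 0.23 and -0.21 ± 0.11 (SD, n = 3 each) differed by 2.90 with a standard error of 0.16.

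Stfa2 and Stfa3, at the far end of the cluster, showed a smaller difference. Stfa2 read 20.6, 23.1 and 21.5 in the control group, the last not well above background, and 39.0, 38.1 and 38.6 in the other. The values within either group were close and the groups did not overlap. Scaled, the means were -6.30 ± 0.16 and -4.81 ± 0.28 (SD, n = 3 each) and the difference 1.49 with a standard error of 0.18. Stfa3 read 943.3, 1346.9 and 1112.1 against 1994.6, 1956.5 and 1918.9. Its lowest overexpression array was above its highest control array, and its scaled means of -0.61 ± 0.29 and 0.86 ± 0.30 (SD, n = 3 each) differed by 1.46 with a standard error of 0.21.

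Stfa1 gave no usable signal. Its probe read 2.6, 3.8 and 6.1 against 2.5, 2.7 and 4.5, between 1.02 and 1.24 times the median of the 308 negative control spots of the same array. It was not well above background on any array, so no fold is given. Csta1 and Cstdc6 were likewise not well above background on any array.

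**Figure D1:**
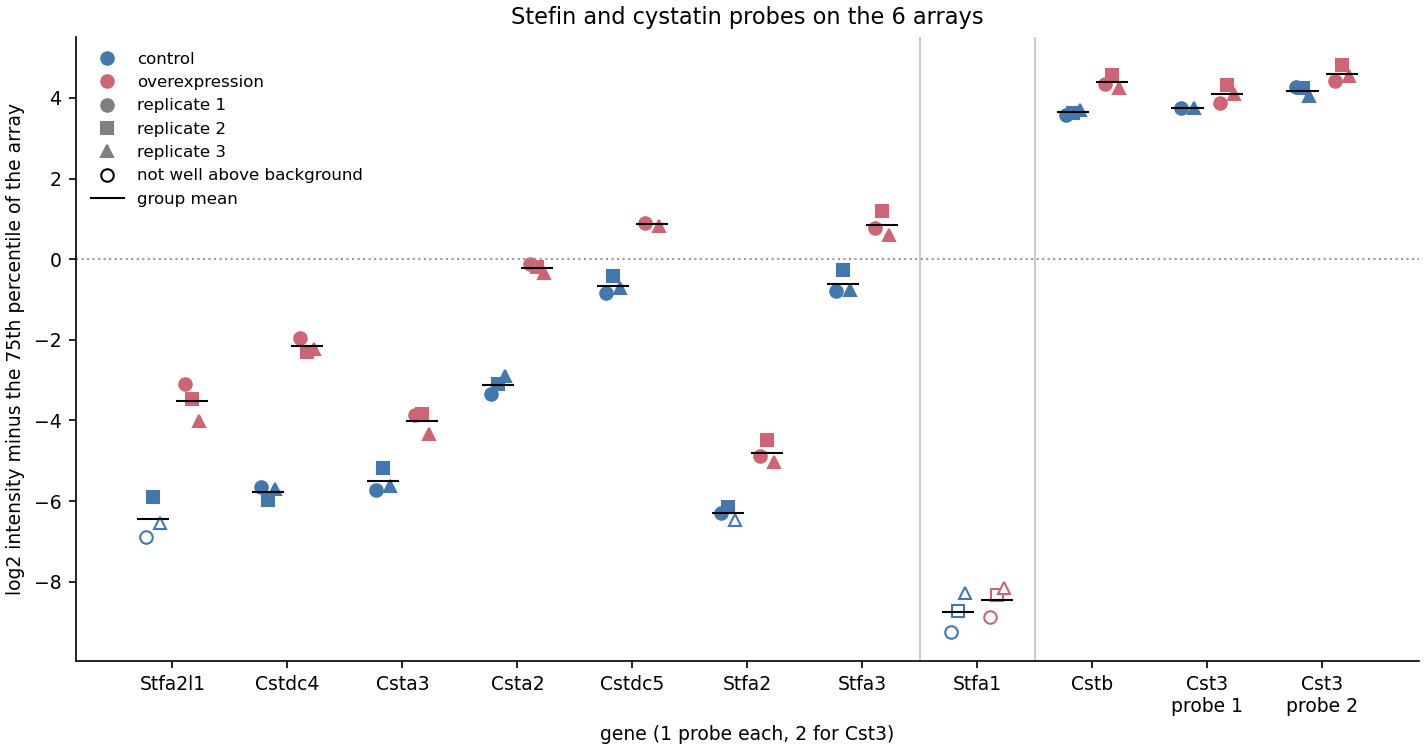
Scaled log2 intensity (array's 75th percentile at 0) of each stefin and cystatin probe, with 1 point per array, the replicate number as the symbol, open points not well above background and a line at the group mean. Spots marked as outliers are left out. The groups are apart for the 7 cluster probes on the left, Stfa1 lies at background in both, and the means of Cstb and Cst3 are 0.35 to 0.74 apart. Of 37314 tested probes with values on every array, 41.4% had all overexpression arrays above all control arrays.

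The other 2 cluster genes with signal followed Stfa2 and Stfa3. Csta3 read 30.7, 45.3 and 38.6 against 79.7, 60.1 and 62.4, and the scaled difference was 1.49 with a standard error of 0.21. Cstdc5 read 902.1, 1224.0 and 1151.9 against 2160.8, 2639.3 and 2250.4. The second overexpression spot of Cstdc5 was marked as an outlier and left out of the fit, which gave a difference of 1.52 with a standard error of 0.18.

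On the scaled values the tested cluster probes stood in 2 sets, which mixed when the background was corrected with normexp before the 75th percentile scaling, where Stfa2l1 (1.32) lay below Cstdc5 (1.38) and Stfa3 (1.33). Csta3, Cstdc5, Stfa2 and Stfa3 differed by 1.46 to 1.52. With each probe centred on its own mean over the arrays, the root mean square distance between any pair of these 4 was 0.10 to 0.17. Stfa2l1, Cstdc4 and Csta2 differed by 2.90 to 3.61 and were 0.34 to 0.57 from each other, and 0.69 to 1.13 from the first set. Within the slide that held replicates 1 and 2 of either group the 7 probes differed by 1.51 to 3.68, and on the slide with replicate 3 by 1.27 to 3.47. The sets were defined from these values and were not tested. Stfa2 and Stfa2l1, the pair with the most similar windows, differed by 1.49 and 2.92 between the groups, and by 0.85 and 1.32 with that correction. The probe sequences were not analysed here, so cross-hybridization between such similar transcripts was not tested, and a probe may report more than its own gene.

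Cstb, the ubiquitous stefin B, was among the bright probes. Control replicates read 19380, 20114 and 24798 and overexpression replicates 23416, 20319 and 24069, and these raw intensities overlapped between the groups. Scaled, the means were 3.64 ± 0.07 and 4.39 ± 0.17 (SD, n = 3 each) and the difference was 0.74, or 0.50 above the median of all probes. After quantile normalization it was 0.18, or 0.12 above that median. The first Cst3 probe read 21940, 18889 and 25522 against 17101, 17229 and 21847, and the second 30983, 30702 and 31447 against 24664, 24095 and 29472. The raw values of the second probe were all lower on the overexpression arrays, and those of the first overlapped only through control replicate 2, a spot marked as an outlier and left out of the fit. Scaled to the 75th percentile the differences of the Cst3 probes were 0.35 and 0.41, and with quantile normalization they turned to -0.21 and -0.22, so no direction is given for Cst3. The size of these bright probes' differences depended on the scaling, while the raw intensities of the 7 tested cluster probes were 1.74 to 7.70 times higher on the overexpression arrays.

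Of 38919 tested probes, 35.4% were higher on the overexpression arrays with an adjusted p under 0.05, and 41.4% of the 37314 with values on every array had all overexpression arrays above all control arrays. The choice of members fixes the side on which they stand, so nothing is read from their place among these shares. Stfa2l1 and Stfa2 were tested only through the overexpression group, since not all of their control arrays were well above background. By size, and as a description, the differences of Cstdc4, Stfa2l1 and Csta2 ranked 11, 25 and 27 from the top of the tested probes. Those of Cstdc5, Stfa2, Csta3 and Stfa3 ranked 559, 614, 619 and 656. Cstb ranked 7416 and the Cst3 probes 15860 and 17184.

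The normexp correction moved the dim members most, and quantile normalization the bright Cstb and Cst3. With normexp, a background correction that adds an offset of 50 to every spot, the differences of Cstdc4 and Stfa2l1 shrank to 2.00 and 1.32, whereas Csta2 kept 2.47 and became the largest, and Stfa3 kept 1.33. With quantile normalization added to this, Stfa2 was at 0.42 and Csta3 at 0.61. On the log2 values that the authors had normalized, the 7 cluster probes differed by 1.15 to 3.17.

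**Figure D2:**
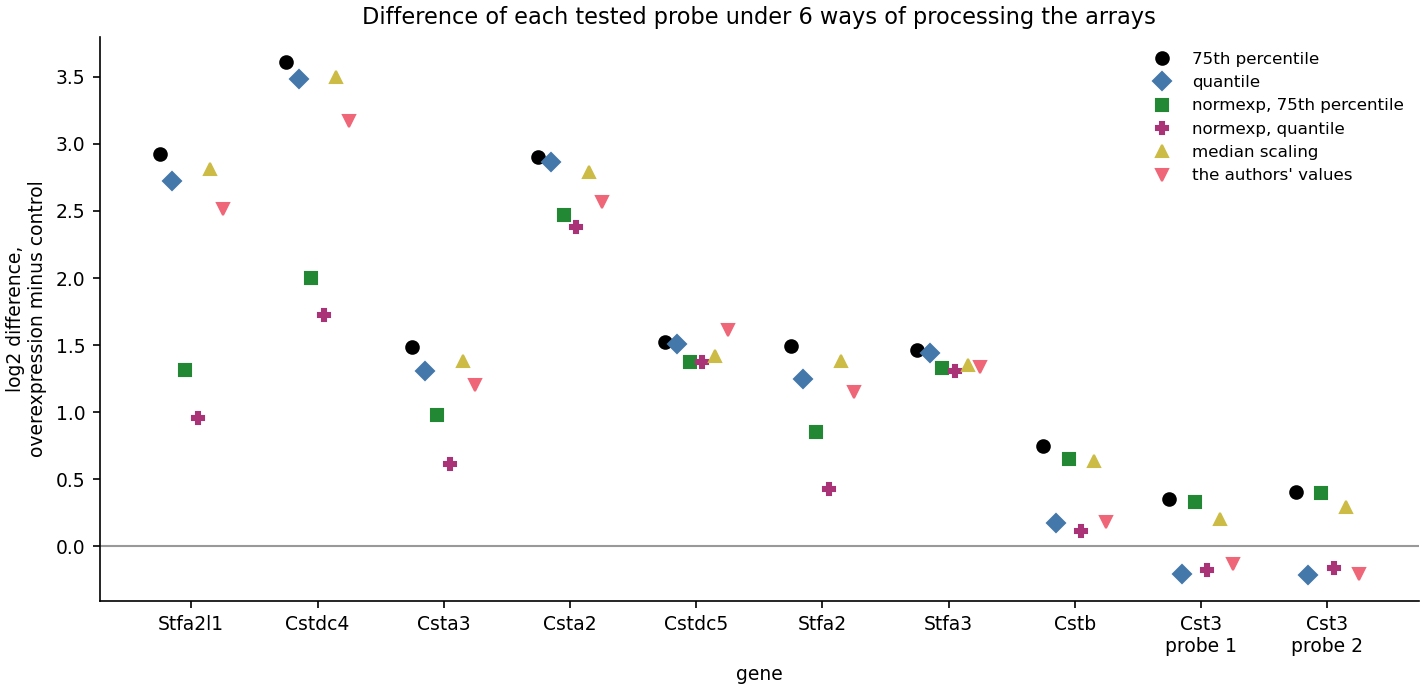
Log2 difference (overexpression minus control) of each tested stefin and cystatin probe under 6 ways of processing the arrays, 1 symbol for each way. The cluster probes stay above 0 under all 6, the dim probes Stfa2l1, Cstdc4, Csta3 and Stfa2 drop under the normexp correction, and the Cst3 probes change sign.

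To see whether the neighbourhood moved with the cluster, the 10 nearest tested genes on either side were compared. This list was fixed by position. Of these 20 genes, 6 rose, 6 fell and 8 did not pass the test, with a median difference of 0.07 against 0.23 over all 17062 tested genes, of which 36.9% rose and 19.6% fell. On the Csta1 side, Ccdc58 (log2 difference 0.79 ± 0.13, standard error, adjusted p = 0.00243) and the mitochondrial protein gene Fam162a (0.84 ± 0.13, adjusted p = 0.00146) rose, and Wdr5b fell (adjusted p = 0.000127). Wdr5b was not well above background on any overexpression array and was at least 1.34-fold lower there, measured against the dimmest signals that counted as well above background. With normexp and the 75th percentile its difference was 0.10 (adjusted p = 0.552). On the Stfa3 side, the calcium-sensing receptor gene Casr rose by 1.22 (standard error 0.12, adjusted p = 0.000276), whereas Cd86, a costimulatory ligand for T cells, fell by 0.66 (standard error 0.12, adjusted p = 0.00289) and Ildr1 gave 0.05 (adjusted p = 0.902). Further away, Parp14, Slc49a4 and Fbxo40 fell by 1.67, 1.48 and 1.25 and 4930565N06Rik rose by 1.05. The other tested probes of Parp14 and Slc49a4 gave -0.46 and -0.81. The call of Fbxo40 held under 16 of 17 alternatives, and its weakest difference was -0.17. That of 4930565N06Rik held under all 17, with a weakest difference of 0.28. With normexp and the 75th percentile 4 of the 20 genes fell. With quantile normalization Fam162a no longer passed the test (0.22, adjusted p = 0.113). Within the cluster, the transcribed pseudogene Gm6815 was the only other gene tested, and it fell by 0.87 (adjusted p = 0.000895).

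**Figure D3:**
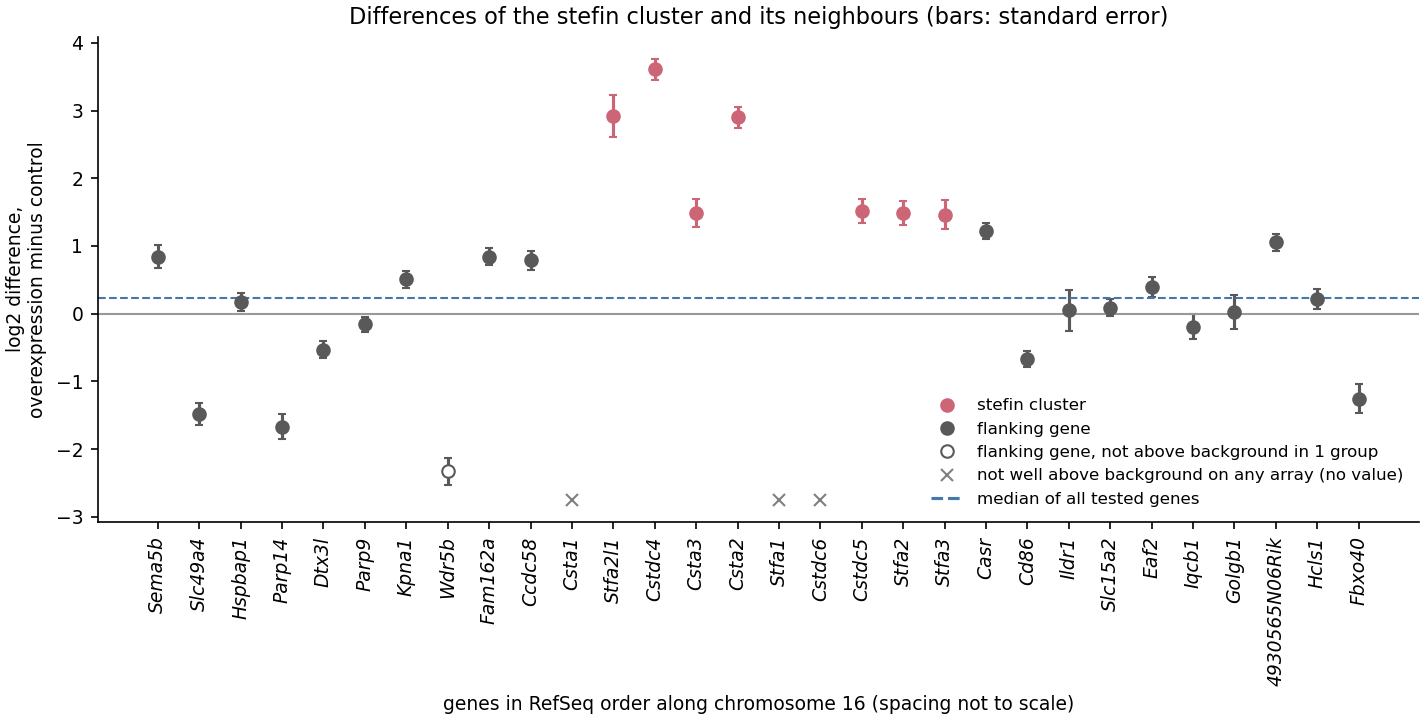
Log2 difference (overexpression minus control, with its standard error) of the stefin cluster genes and the 10 nearest tested genes on either side, in chromosome order, with crosses for genes that were not well above background on any array and a dashed line at the median of all tested genes. The tested cluster genes lie at 1.46 to 3.61, above all 20 neighbours, of which Casr is the highest at 1.22. The members were chosen with their differences known, so their height above the neighbours is a description and was not tested. Wdr5b, drawn open, was not well above background on the overexpression arrays, so that its point has no exact value.

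The proteases that stefins and cystatins inhibit were compared next. Of 19 cysteine cathepsins and legumain, 12 were tested, 7 rose and 0 fell by limma, also at an unadjusted p under 0.05, with a median difference of 0.36. Over all tested genes 36.9% rose and 19.6% fell, with a median of 0.23. Averaging the probes of a gene gave 1 that fell. The rise was small and followed the scaling. Ctsk, the collagen-degrading cathepsin of osteoclasts, rose by 0.89 (standard error 0.12, adjusted p = 0.00103), and Ctsw, a cathepsin of cytotoxic lymphocytes, by 0.67 (standard error 0.19, adjusted p = 0.0193). Both also passed with quantile normalization, at 0.68 and 0.61. The abundant lysosomal genes Ctsz (0.76, adjusted p = 0.00782), Ctsb (0.46, adjusted p = 0.0217), Ctss (0.46, adjusted p = 0.0146), Lgmn (0.36, adjusted p = 0.0353) and Ctsc (0.36, adjusted p = 0.0332) passed with the 75th percentile but not with quantile normalization. With the latter their differences were 0.08, -0.14, 0.05, -0.19 and 0.21. Ctsl gave 0.27 (adjusted p = 0.187) and Ctsh 0.05 (adjusted p = 0.748). The probes of Ctsl and of Ctsc disagreed, from -1.32 to 0.27 and from -0.34 to 0.77. Without any 1 of the 3 control arrays 4 genes rose, and without overexpression replicate 1 only 2 did.

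Other members of the cystatin superfamily went both ways. Of 16 genes 7 were tested, 4 rose and 3 fell, with a median of 0.44, beside 36.9% and 19.6% of all tested genes and a median of 0.23. Cst7, or cystatin F, which is taken up into lysosomes of immune cells, fell by 0.41 (standard error 0.14, adjusted p = 0.0336), and by 0.74 with quantile normalization. The call of Cst7 held under 12 of 17 alternatives, and its weakest difference was -0.33. Cst6, a secreted cystatin of epithelia, fell (adjusted p = 0.000417), but only 1 of 3 overexpression arrays was well above background, and the fall of 1.43 measured there shrank to a difference of -0.12 (adjusted p = 0.481) with normexp and the 75th percentile. The brightest probe of Kng1, the kininogen gene, fell by 1.20 (adjusted p = 0.000403), but its other tested probe gave 0.73. Fetub rose by 0.76 (adjusted p = 0.00656) and Cst11 by 0.67 (adjusted p = 0.0192), the latter with an adjusted p of 0.0529 after quantile normalization, when 1 gene rose. Without control replicate 1, 2 genes rose.

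Genes of neutrophils, a cell type in which the cluster is known to be used, were set beside it. Of 19 genes 13 were tested, 8 rose and Cebpe fell, with a median difference of 0.51, against 36.9% that rose, 19.6% that fell and a median of 0.23 over all tested genes. S100a8 rose by 0.54 (adjusted p = 0.0142) and Camp by 0.51 (adjusted p = 0.0296), whereas S100a9, Ngp, Ltf and Retnlg were not well above background on any array. Mpo, the peroxidase of azurophil granules, rose most, by 0.93 (standard error 0.16, adjusted p = 0.00248), and Csf3r rose by 0.61 (adjusted p = 0.00562) and Mmp8 by 0.54 (adjusted p = 0.0274). The brighter probe of Mmp9 rose by 0.62 (adjusted p = 0.041), but its other tested probe gave -0.07, and the call held under 7 of 17 alternatives. With quantile normalization Mpo alone rose, without control replicate 3, overexpression replicate 1 or overexpression replicate 2 the number that rose was 3, without control replicate 2 it was 4, and without control replicate 1 it was 5. Cebpe no longer passed without any 1 of the control arrays or overexpression replicates 1 or 3. The intensities of the whole list summed to 49.7 to 53.1 times the array's 75th percentile in the control group and 55.8 to 68.8 times in the overexpression group. Such a sum follows its brightest genes. The scaled log2 means were 4.03 and 4.64 for Csf3r and 3.83 and 3.79 for Lcn2, against -3.42 and -2.48 for Mpo. With quantile normalization the difference of Csf3r was -0.002. Epidermal genes, of which 5 of 12 were tested and 3 rose (Krt10 by 0.65, Sbsn by 0.61 and Ivl by 0.59), summed to 1.99 to 2.36 against 2.58 to 3.27. With quantile normalization Ivl no longer passed (0.39, adjusted p = 0.144), and its call held under 11 of 17 alternatives. Krt10 and Ivl were dim, with scaled log2 means of -5.23 and -5.03 in the control group. Among the epidermal genes Krt14, Krt1, Lor and Dsg1a were not well above background on any array. The part of these markers in the stefin values was not tested, and in bulk RNA a larger share of cells that use the cluster and more RNA per cell cannot be told apart.

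**Figure D4:**
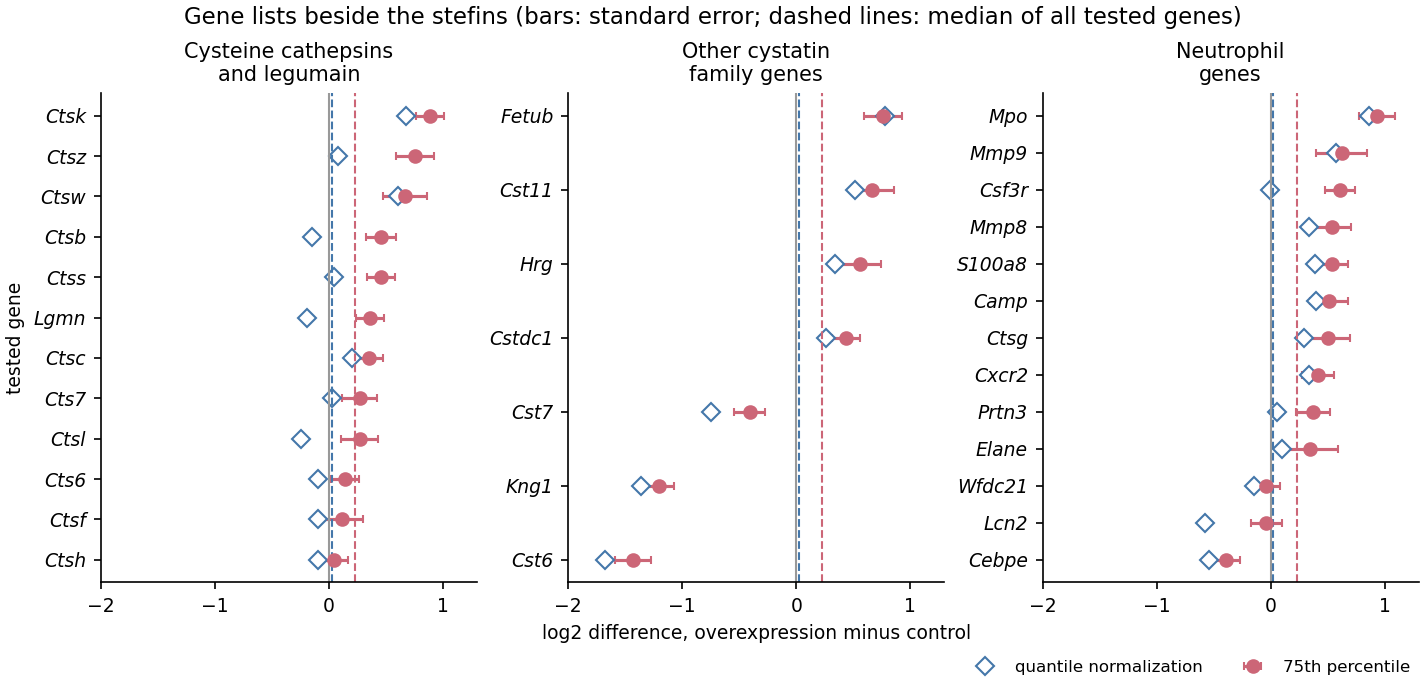
Log2 difference (overexpression minus control) of the tested genes of the cathepsin, cystatin and neutrophil lists, with the 75th percentile scaling in red (bars, standard error) and quantile normalization in open blue symbols. Most genes shift to the left with quantile normalization, and none is higher by as much as 1.46, the smallest difference of a tested cluster gene. The cluster members were chosen with their differences known, so this contrast is a description and was not tested.

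The genes whose pattern over the 6 arrays was most like the mean of the 5 tested cluster members were Slc25a41, a mitochondrial carrier, the small nucleolar RNA Snord33, Sez6l, the histone gene H2bu2 and Gm31587. Their root mean square distances were 0.21 to 0.27 over 16296 genes with values on every array, and none of them lies on chromosome 16. The differences of the first 4 were 1.97 to 2.15, between the 2 sets of cluster probes, and Gm31587 was not well above background on any control array. Csta2 itself was at 0.25, Stfa2l1 at 0.35, Stfa2 at 0.51, Stfa3 at 0.53 and Cstdc4 at 0.61. Cstb was at 0.88 and Cst3 at 1.05. The first 5 of these genes make up the mean and Cstb and Cst3 do not, so nothing is read from this contrast.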

How the data were processed

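RNA of LPS-treated BV2 cells was measured on 6 Agilent arrays, 3 per group, on 2 slides. The labels gave the group, replicate number and slide of each array. The authors deposited the intensity of each spot from Agilent Feature Extraction 11.5.1.1, with the background subtracted and spatial trends removed within the array and no normalization between arrays. They also deposited a table of log2 values, normalized between arrays by the authors in GeneSpring. The members and gene lists were chosen with earlier results of these data known.

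The log2 of the intensity was taken and the 75th percentile over the 59305 spots other than controls subtracted. Spots marked as outliers were left out (149 to 1590 per array) and repeated spots averaged. Probes were named through their accession in a RefSeq table of GRCm38.p6, and 33767 of 56605 matched (59.7%). To be tested, a probe needed values on 2 or more arrays of either group and a signal well above background on the 3 arrays of at least 1 group. Differences were fitted in limma 3.58.1 (lmFit and eBayes, R 4.3.3) for probes and, with the brightest tested probe, for genes. The two-sided p-values were adjusted by Benjamini-Hochberg, and those under 0.05 passed. The scripts were tested on simulated data.

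The text names all members, the rest of the cluster, 8 proteases, Cst7, up to 4 further called genes of each list, the 3 nearest flanking genes on either side, 4 neutrophil genes and the 5 genes of most similar pattern. Gm6815 was named after its value was seen. Promoter windows were aligned and searched with Biopython 1.88. A comparison of the proteins was planned but not run here. Between 3 arrays and 3, an exact two-sided permutation test of a single value cannot go below 0.1, so none was used. The number of arrays limits the precision.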

Additional observations from a re-analysis of the deposited data

How the results depend on the processing

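The 7 tested cluster probes stayed higher on the overexpression arrays under every alternative tried. Their median difference of 1.52 became 2.19 when a probe had to be well above background on all 6 arrays, which kept 4 of them, and 1.49 to 1.66 without any 1 array. The Cst3 probes reversed, to -0.21 and -0.22 with quantile normalization, -0.17 and -0.16 with normexp and quantile normalization, and -0.13 and -0.21 on the authors' log2 values.

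The number of cathepsins and legumain that rose, 7, became 2 with quantile normalization, with normexp and quantile normalization and on the authors' values, 3 when arrays were scaled to their median, and 2 to 5 without 1 array, and 1 fell when a gene's probes were averaged. The cystatin genes that rose, 4, became 1, 1, 1 and 2 under the same alternatives and 2 to 4 without 1 array. The neutrophil genes that rose, 8, became 1, 1, 1 and 3, and 4 with no filter on dim probes, and 3 to 8 without 1 array. Those that fell, 1, became 2 with quantile normalization, with normexp and quantile normalization and on the authors' values, 0 with no filter, and 0 to 1 without 1 array. The flanking genes stayed at 5 to 7 that rose and 6 that fell without 1 array. With the slide as a block 9 neutrophil genes rose and the other list counts moved by 1 at most. Within the slide of replicates 1 and 2 and the slide of replicate 3 the median differences were 0.41 and 0.27 for the cathepsins, 0.46 and 0.31 for the cystatins, 0.53 and 0.36 for the neutrophil genes and 0.10 and 0.05 for the flanking genes.

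Arrays with the same replicate number did not deviate together in every pair (correlations -0.16, 0.07 and 0.60), so the numbers were not taken as pairing. With the replicate as a block, 10561 in place of 9633 genes and 22803 in place of 20943 probes passed the threshold, the cluster median was 1.64, and the list counts moved by 1 at most. Weak signal limits Stfa2l1 and Stfa2, and no statement is possible on Stfa1, Csta1 and Cstdc6.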
